A study of Mus musculus with 18 samples.

Results

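The genes described here are 5 enzymes and carriers of hepatic gluconeogenesis (Pck1, G6pc, Fbp1, Pcx and Slc37a4) and 4 regulators of their transcription (Ppargc1a, Crtc2, Sik1 and Creb1). The rule that picks the 9 genes is a list of names and uses no measured value, although the list was drawn up with earlier results of these data known, and all 9 are among the 14451 genes of the deposited table. They were followed in whole livers of 18 WT male mice, 8 to 9 weeks old and kept in 12 h of light and 12 h of dark, with 3 livers at each of 6 zeitgeber times (ZT), 4 h apart. ZT0 is lights on, so ZT1, ZT5 and ZT9 fall in the light and ZT13, ZT17 and ZT21 in the dark. Each liver came from a different mouse, and the 3 sequenced per time point were those with the best RNA of the animals taken. The strain and the feeding schedule were not given in the sources used here, and no group was fasted or treated according to the labels.

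In gluconeogenesis the liver makes glucose from lactate, amino acids and glycerol and exports it between meals. Pyruvate carboxylase (Pcx) makes oxaloacetate in the mitochondrion, phosphoenolpyruvate carboxykinase (Pck1) turns oxaloacetate into phosphoenolpyruvate, fructose-1,6-bisphosphatase (Fbp1) removes a phosphate from fructose bisphosphate, the carrier Slc37a4 brings glucose-6-phosphate into the endoplasmic reticulum, and glucose-6-phosphatase (G6pc) frees the glucose there. Glucagon raises cAMP, which activates protein kinase A and the transcription factor Creb1. Crtc2 is a coactivator that binds Creb1, Sik1 is a kinase that keeps Crtc proteins out of the nucleus, and Ppargc1a is a coactivator induced by cAMP in the fasted liver.

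The DNA just upstream of these genes is shown because cAMP response elements there are a known route from glucagon to this pathway. RefSeq start sites (GRCm38.p6) gave the 250 bases before the start for 7 of the 9 genes, in 10 windows, since Slc37a4 has 3 start sites and Pcx 2. Crtc2 and Sik1 are named only. Shares over all promoters are likewise per window. The full palindromic element TGACGTCA lay in 0 of the 10 windows, against 1.55% of all promoters in the same table. The shorter core TGACG, or CGTCA where it is read on the other strand, was present in 4 of the 10, against 17.8% of all promoters. These windows belong to 3 genes, Pck1, Ppargc1a and Slc37a4, with 2 overlapping windows of Slc37a4 that share a match. In Pck1 it ran from base -90 to -86 before the start, in Slc37a4 from -61 to -57 of its most upstream start site, and in Ppargc1a from -49 to -45. Slc37a4 had a further match, CGTCA, from -82 to -78 of its start site 2, outside the window shown. The gene positions printed further on come from another annotation. For Pck1, G6pc and Slc37a4 those positions begin before the RefSeq start, so the ends of these windows lie inside the gene as placed there. For Ppargc1a only the last base of the window, 51567726, does so. The Slc37a4 matches fall in that shared part, and those of Pck1 and Ppargc1a do not. No such letters were found in the windows of G6pc, Fbp1, Pcx and Creb1, and other spellings of the element were not searched. The windows of the 4 members with the largest ratios of highest to lowest time point mean are shown, 1 per gene, with the core in capitals.
Pck1, chr2:173152823-173153072 (+ strand): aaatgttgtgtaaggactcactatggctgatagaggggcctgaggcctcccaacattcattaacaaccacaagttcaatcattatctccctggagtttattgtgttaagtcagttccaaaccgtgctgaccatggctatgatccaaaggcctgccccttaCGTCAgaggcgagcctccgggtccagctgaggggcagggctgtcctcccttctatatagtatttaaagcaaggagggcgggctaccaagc
G6pc, chr11:101367466-101367715 (+ strand): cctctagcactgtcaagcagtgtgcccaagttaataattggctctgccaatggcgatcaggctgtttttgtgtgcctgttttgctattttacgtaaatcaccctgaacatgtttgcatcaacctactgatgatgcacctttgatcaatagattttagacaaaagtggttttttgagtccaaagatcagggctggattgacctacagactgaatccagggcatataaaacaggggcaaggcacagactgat
Slc37a4, chr9:44396696-44396945 (+ strand): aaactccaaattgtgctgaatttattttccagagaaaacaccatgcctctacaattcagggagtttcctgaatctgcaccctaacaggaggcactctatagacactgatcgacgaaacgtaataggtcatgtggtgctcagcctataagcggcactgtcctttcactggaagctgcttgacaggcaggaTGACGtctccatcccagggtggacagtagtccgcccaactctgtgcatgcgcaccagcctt
Ppargc1a, chr5:51567726-51567975 (- strand): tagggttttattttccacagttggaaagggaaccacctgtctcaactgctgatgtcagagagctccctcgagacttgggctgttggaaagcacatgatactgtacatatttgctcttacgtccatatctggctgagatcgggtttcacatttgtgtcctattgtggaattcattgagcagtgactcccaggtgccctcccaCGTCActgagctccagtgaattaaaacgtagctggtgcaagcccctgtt
In the G6pc window the letters TATAAA stood at -29 to -24, and in that of Slc37a4 start site 3 (not shown) at -32 to -27. They occur somewhere in 12.4% of promoters. The E-box CACGTG, to which clock proteins bind, was found in 1 of the 10 windows, that of Pcx start site 1, at -248 to -243, against 6.02% of promoters. The D-box TTATGTAA and the FOXO element GTAAACA were found in 0 of the 10, against 0.819% and 3.17%. Matches are to letters only, on both strands, and say nothing of binding.

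The values are estimated reads per gene after adding 0.5 and scaling to 1000000 reads of a liver's effective library, so they follow transcript length and are compared here between livers and not between genes. Libraries held from 10268168 to 23242842 estimated reads. Every member was detected in every liver, with 56 to 256 reads per liver for Ppargc1a, the most thinly covered member, and 3050 to 23311 for Pck1. All 5 hepatocyte markers were present, and their summed value was 65255 to 95021 over the livers. The livers of ZT9 held 65255 to 69775, below every liver of the other times, of which the lowest held 71151, at ZT5. With Arntl, Dbp, Nr1d1 and Per2 as clock landmarks, 17 of 18 livers lay nearest to their own time point, and ZT5 replicate 3, which was also the deepest library, lay nearest to ZT9. Called results that are lost or gained without it are given with their value.

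A rhythm of 24 h was called for 5 of the 9 genes: Pck1, G6pc, Fbp1, Slc37a4 and Ppargc1a. The test was limma's moderated F test of a 24 h cosine and sine on log2(value + 1), at a Benjamini-Hochberg adjusted p below 0.05 over 14449 genes, and it called 35.3% of all genes. Pck1 and Ppargc1a had their highest means at ZT5 and ZT9, G6pc around lights on, and Slc37a4 and Fbp1 at the start of the dark. At ZT1, also in the light, Ppargc1a had its lowest mean (5.82). Pcx, Crtc2, Sik1 and Creb1 were not called. The median 24 h amplitude of the 9 genes was 0.26 on the log2 scale, against 0.16 over all genes.

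**Figure D1:**
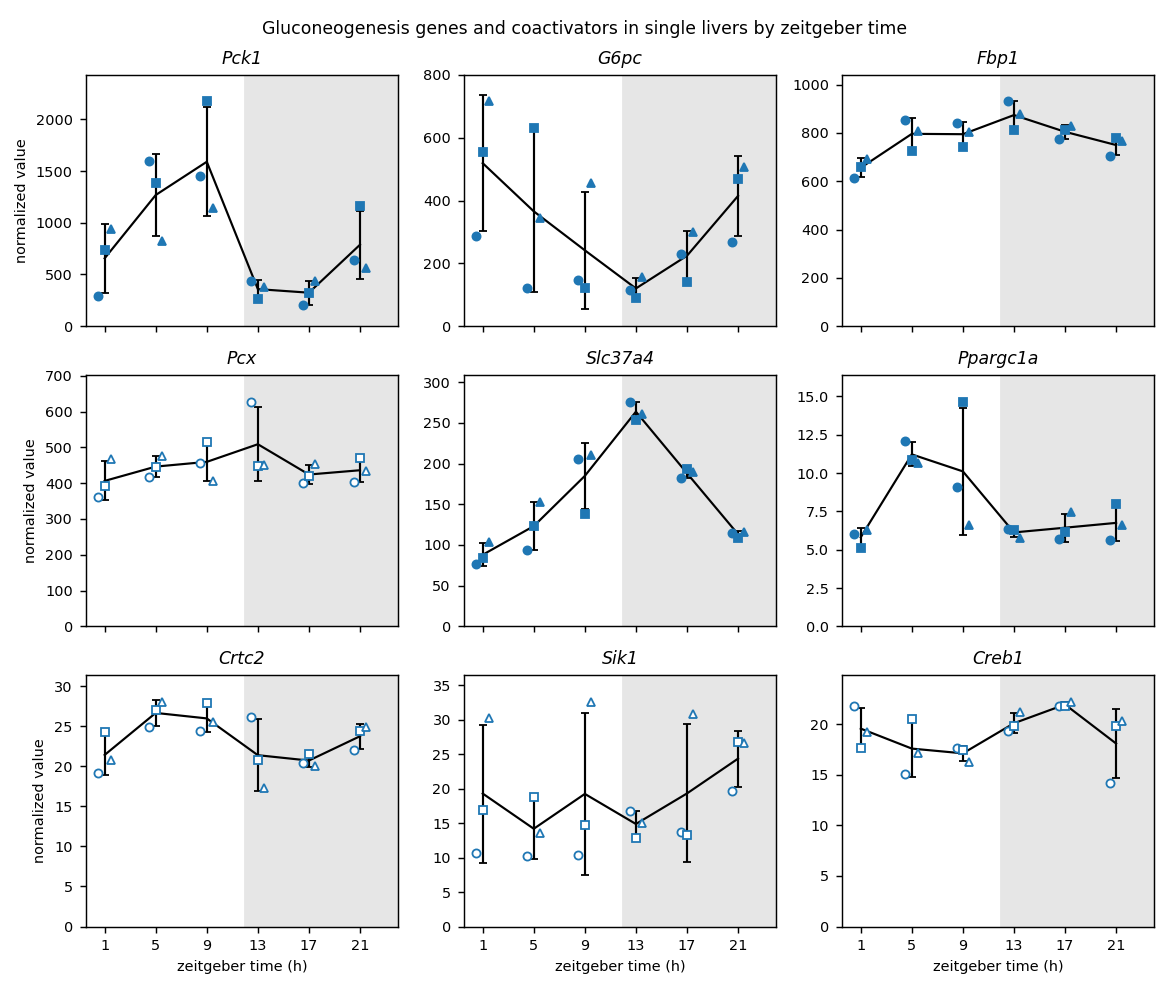
Normalized value (y axis, from 0) of each gene against zeitgeber time in hours (x axis). Circles, squares and triangles are replicates 1, 2 and 3 of a time point, set slightly apart, lines join the means, bars are SD (n = 3), grey is the dark, and filled symbols mark the 5 genes called rhythmic at 24 h. Pck1 falls between ZT9 and ZT13, Slc37a4 peaks at ZT13 with livers close together, and G6pc and Sik1 spread widely within a time point.

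Pck1, the enzyme that commits oxaloacetate to glucose synthesis, lies at chr2:173153048-173159273 of GRCm38. In the light its value in the 3 livers was 292, 734 and 943 at ZT1, 1596, 1385 and 824 at ZT5, and 1453, 2172 and 1143 at ZT9. In the dark it was 438, 261 and 376 at ZT13, 209, 324 and 438 at ZT17, and 640.2, 1162 and 559.5 at ZT21. All livers of ZT5 and ZT9 stood above all livers of ZT13 and ZT17, and ZT1 replicate 1 was as low as the early dark livers. The mean of the highest time point, ZT9, was 4.91 times that of the lowest, ZT17 (1590 ± 528 against 324 ± 114, SD, n = 3). The 24 h fit gave an amplitude of 0.96 ± 0.23 (SE, log2) with a peak at ZT5.34 ± 0.92 h (adjusted p = 0.0109). Between ZT9 and ZT13, across lights off, Pck1 fell by 2.13 ± 0.42 on the log2 scale (SE, adjusted p = 0.00555), a step in which 4.6% of genes were called lower. The dark livers together were lower than the light livers by a log2 difference of -1.25 ± 0.24 (adjusted p = 0.0018). Rises from ZT1 to ZT5 (1.06 ± 0.42, adjusted p = 0.175) and from ZT17 to ZT21 (1.27 ± 0.42, adjusted p = 0.167) did not pass the test. Pck1 held its 24 h, dark against light and ZT9 to ZT13 calls when any 1 of the 18 livers was left out.

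For Pck1, a 12 h term beside the 24 h term had an amplitude of 0.72 ± 0.17 (unadjusted p = 0.00188, adjusted p = 0.1). Over all genes, 0.872% passed the adjusted threshold for that term and 12.6% the unadjusted one. Of the 9 genes, 0 passed the adjusted threshold and 2 the unadjusted one, Pck1 and Ppargc1a (0.28 ± 0.08, unadjusted p = 0.00936, adjusted p = 0.222).

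G6pc, which frees glucose for export, lies at chr11:101367561-101377903. Its values in the light were 288, 554 and 716 at ZT1, 120.3, 632 and 345 at ZT5, and 147, 121 and 456 at ZT9. In the dark they were 116, 88.9 and 156 at ZT13, 230.45, 141 and 301 at ZT17, and 268, 468 and 508 at ZT21. The 3 livers of ZT13 were all low, those of ZT1 and ZT21 all higher than any of ZT13, and the livers of ZT5 and ZT9 spread over most of the range. The mean was 519 ± 216 at ZT1 and 120.2 ± 33.5 at ZT13, a ratio of 4.32. Its 24 h amplitude was 0.93 ± 0.22 with a peak at ZT0.392 ± 0.886 h (adjusted p = 0.00852), and the call held without any 1 liver.

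The livers of a time point differed more in G6pc than in most genes. Its coefficient of variation within time points averaged 47.2%, higher than that of 98.5% of the 12480 genes with a mean of at least 1, whose median was 12.0%. The test for any difference among the 6 time points, which makes no assumption on shape, gave an adjusted p of 0.0852 for G6pc. It was 0.0258 without ZT5 replicate 1 and 0.034 without ZT9 replicate 3. With all livers kept and limma's trend option, which lets the variance follow the mean level, it was 0.0454. None of the 6 steps between neighbouring times was called for G6pc, nor was its difference between dark and light (-0.51 ± 0.33, adjusted p = 0.279). In the order of its time point means (ZT1, ZT21, ZT5, ZT9, ZT17, ZT13), the ranges of all neighbours overlapped, as they did for Pck1 (ZT9, ZT5, ZT21, ZT1, ZT13, ZT17).

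Slc37a4, the glucose-6-phosphate carrier that works with G6pc, lies at chr9:44396852-44402968 and had the lowest adjusted p of the group at 24 h. Its values were 76.2, 83.6 and 104 at ZT1, 93.7, 123 and 152 at ZT5, and 206, 139 and 210.1 at ZT9. At ZT13 they were 276, 254 and 261, at ZT17 182, 193 and 189, and at ZT21 115, 108 and 116. The ZT13 livers stood above all others, and the ZT1 livers below all livers of ZT9 to ZT21. The ZT13 mean was 2.998 times the ZT1 mean (264 ± 11.3 against 87.9 ± 14.4). The amplitude was 0.75 ± 0.07 with a peak at ZT12.9 ± 0.34 h (adjusted p = 1.37e-06), and the dark livers were higher by 0.51 ± 0.10 (adjusted p = 0.00174). Down the order of its means, ZT13 did not overlap ZT17 and ZT21 did not overlap ZT1, while the other neighbours overlapped. The fall of 0.73 ± 0.17 from ZT17 to ZT21 was just past the threshold (adjusted p = 0.0467, with 0.568% of genes called lower). It stayed past it in 4 of the 18 fits without 1 liver (without ZT1 replicate 3, ZT5 replicate 1, ZT5 replicate 3 or ZT9 replicate 2), and over all 18 the adjusted p was 0.0261 to 0.14. It also missed the threshold with a pseudocount of 0.1 (adjusted p = 0.0656) or 0.5 (0.057) and with equal column totals (0.0607). The rise of 0.53 ± 0.17 from ZT9 to ZT13 was not called (adjusted p = 0.0634). It was called without ZT5 replicate 3 (0.0461) or ZT5 replicate 1 (0.0373), and with limma's trend option (0.0333).

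Fbp1, at chr13:62864753-62888282, had a smaller daily change. Its values were 614, 661 and 692 at ZT1, 855, 724 and 809 at ZT5, and 839, 741 and 803 at ZT9. In the dark they were 929.7, 813 and 878 at ZT13, 774, 810.0 and 829 at ZT17, and 704, 778 and 767 at ZT21. The 3 livers of ZT1 lay below every other liver, and the ZT13 mean was 1.33 times theirs (874 ± 58.4 against 656 ± 39.7). Its amplitude was 0.16 ± 0.04 with a peak at ZT12.5 ± 0.99 h (adjusted p = 0.0174), and without ZT1 replicate 1 the adjusted p was 0.0501. Livers of a time point differed in Fbp1 by a mean coefficient of variation of 6.03%, lower than in most genes.

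Pcx, at chr19:4510472-4621752, was not called in any test of time. Its livers ranged from 361 to 628, with time point means of 406 ± 54.3 at ZT1 and 509 ± 103 at ZT13, a ratio of 1.25. ZT13 replicate 1 held the highest value, and the other 2 livers of ZT13 (447 and 452) lay within the range of ZT1 (361 to 467). The 24 h amplitude was 0.11 ± 0.06 (adjusted p = 0.247). Pcx was the only member whose highest and lowest time points overlapped. Their ranges were apart in the other 8, as in 70.8% of all genes.

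**Figure D2:**
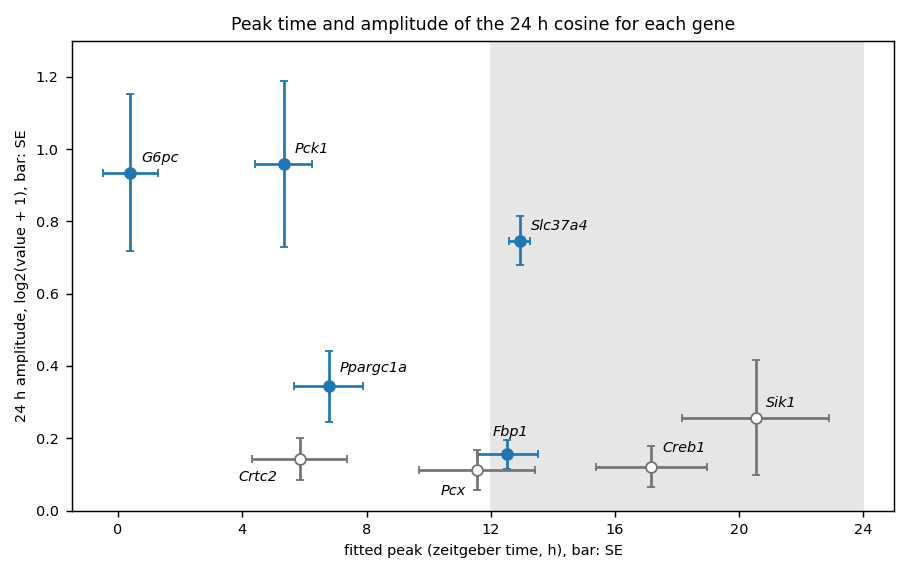
Amplitude of the 24 h cosine on the log2(value + 1) scale (y axis) against its fitted peak in zeitgeber hours (x axis), 1 point per gene, with SE on both axes from the fit to 18 livers. Filled blue points are the 5 genes called at an adjusted p below 0.05, open points the others, and grey is the dark. Pck1 and G6pc have amplitudes of 0.96 and 0.93 and peak at ZT5.34 and ZT0.392, whereas Slc37a4 and Fbp1 peak at ZT12.9 and ZT12.5.

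Ppargc1a, the coactivator, lies at chr5:51454250-51567726. Its values were 6.06, 5.14 and 6.26 at ZT1, 12.1, 10.9 and 10.7 at ZT5, and 9.07, 14.7 and 6.61 at ZT9. In the dark they were 6.35, 6.26 and 5.78 at ZT13, 5.69, 6.19 and 7.44 at ZT17, and 5.64, 8.01 and 6.61 at ZT21. The 3 livers of ZT5 were higher than every liver of ZT1 and of the dark, and those of ZT9 reached from the dark level to the highest value of all. The rise from ZT1 to ZT5 was 0.84 ± 0.19 on the log2 scale (adjusted p = 0.0188, with 2.53% of genes called higher), and the ratio of their means was 1.93. It missed the threshold without ZT1 replicate 2 (adjusted p = 0.0895), ZT5 replicate 1 (0.0675) or ZT5 replicate 3 (0.0511). Dark livers were lower than light livers by -0.37 ± 0.11 (adjusted p = 0.0241), with 0.0518 without ZT21 replicate 1. The 24 h amplitude was 0.34 ± 0.10 with a peak at ZT6.78 ± 1.1 h (adjusted p = 0.0317). This call was lost without ZT5 replicate 1 (adjusted p = 0.0708), replicate 2 (0.0667) or replicate 3 (0.0636), without ZT9 replicate 2 (0.0588), without ZT17 replicate 1 (0.0537) and without ZT21 replicate 1 (0.0533).

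Some markers of other cells were also high at ZT5 and ZT9, where the means of Ppargc1a were highest. The 5 Kupffer cell markers summed to 99.3 to 205 at ZT1, 171 to 230 at ZT5 and 176 to 215 at ZT9. In the dark they summed to 159 to 211 at ZT13, 86.7 to 201 at ZT17 and 87.4 to 137 at ZT21. ZT5 thus overlapped every other time point but ZT21. The 5 markers of sinusoidal endothelium summed to 102 to 158 at ZT1, 152 to 190.4 at ZT5 and 134 to 171 at ZT9. Their dark sums were 113 to 157 at ZT13, 78.5 to 152 at ZT17 and 81.8 to 128 at ZT21. In each of these lists 2 of the 5 were called at 24 h, with peaks in the light, a share close to the 35.3% over all genes. Of the 4 cholangiocyte markers 2 were called, with peaks in the dark, and of the 5 stellate and 4 red cell markers 0. All of these markers were detected. Their part in the Ppargc1a result was not tested. In whole livers, fewer cells of a type and less RNA per cell cannot be told apart.

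The 3 members of the Creb1 branch (Crtc2, Creb1 and Sik1) were not called at 24 h. Crtc2, the Creb1 coactivator, had a mean of 26.7 ± 1.6 at ZT5 and 20.7 ± 0.77 at ZT17, with livers from 17.2 to 28.1. Its 24 h amplitude was 0.14 ± 0.06 (adjusted p = 0.134). The highest Crtc2 value in the dark was 26.1, in ZT13 replicate 1, whereas the other livers of ZT13 held 20.8 and 17.2. Without that liver, Crtc2 was lower in the dark by -0.21 (adjusted p = 0.026), against -0.16 ± 0.07 (adjusted p = 0.116) with it. Creb1, the transcription factor, had its highest mean at ZT17 (21.96 ± 0.23) and its lowest at ZT9 (17.1 ± 0.75), with no overlap between ZT17 and the next in order, ZT13. Its amplitude was 0.12 ± 0.06 (adjusted p = 0.216). Creb1 was lowest in ZT21 replicate 1 (14.2), and without that liver the adjusted p was 0.0237.

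Sik1, the kinase, varied more between mice of the same time point than between time point means. It was 10.7, 16.9 and 30.3 at ZT1, 10.2, 18.8 and 13.5 at ZT5, and 10.4, 14.7 and 32.6 at ZT9. At ZT13 it was 16.7, 12.8 and 15.1, at ZT17 13.8, 13.3 and 30.8, and at ZT21 19.7, 26.7 and 26.6. Replicate 3 of ZT1, of ZT9 and of ZT17 stood far above the others of its time point. The mean was 24.3 ± 4.05 at ZT21 and 14.2 ± 4.36 at ZT5, a ratio of 1.72, and the 24 h amplitude was 0.26 ± 0.16 (adjusted p = 0.402). Its coefficient of variation averaged 37.5% within time points, higher than in 96.2% of genes, and was 19.9% between the 6 means. In Pck1 these were 36.2% and 60.9%, and their medians over the 12480 genes with a mean of at least 1 were 12.0% and 13.2%. A mean of 3 livers varies less than a single liver, so the within and between figures are not like measures.

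Other tests of a daily change, not all of them at a fixed 24 h, called fewer members. The 5 df test of any time effect called 4 of the 9 against 26.3% of all genes. They were Pck1 (adjusted p = 0.00286), Slc37a4 (6.58e-05), Ppargc1a (0.0129) and Fbp1 (0.0386), and Fbp1 was called in 7 of the 18 fits without 1 liver (adjusted p = 0.0313 to 0.131). It was lost without any 1 liver of ZT1 or ZT17, without replicate 3 of ZT5, ZT9 or ZT21, and without replicate 1 or 3 of ZT13. Without ZT5 replicate 3, the liver nearest to ZT9, its adjusted p was 0.0562, and with equal column totals it was 0.0558. JTK, the rank test of cosine orders with periods of 20, 24 and 28 h, called 1 of the 9, Slc37a4 (q = 0.0055), against 14.1% of genes. Fbp1 (q = 0.0537, and 0.0479 without ZT5 replicate 3) and Pck1 (q = 0.0844) came next, and G6pc (q = 0.158) and Ppargc1a (q = 0.417) were further from the threshold. The cosine curve of CircaN, with q below 0.05 and R-squared of at least 0.7, called Slc37a4 (R-squared 0.877) and no other member, against 11.2% of genes. R-squared was 0.645 for Pck1, 0.584 for Fbp1, 0.530 for Ppargc1a and 0.471 for G6pc. These are not fits at 24 h, since the CircaN period was free from 20 to 28 h. It came to 20 h, the lower limit, for Pck1 and Ppargc1a, and to 22.7 h for Slc37a4, 24.6 h for G6pc and 26.2 h for Fbp1. The fixed 24 h fit on log2 values had an R-squared of 0.486 for Pck1 and 0.412 for Ppargc1a.

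By step, 3 of the 54 member changes between neighbouring times were called, in 3 different genes, and 13.6% of all genes had at least 1 called step. By phase, 3 of the 9 differed between dark and light against 24.3% of genes, with Slc37a4 higher (11.9% of genes) and Pck1 and Ppargc1a lower (12.3%). The median difference of the 9 was 0.06, against -0.01 over all genes.

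**Figure D3:**
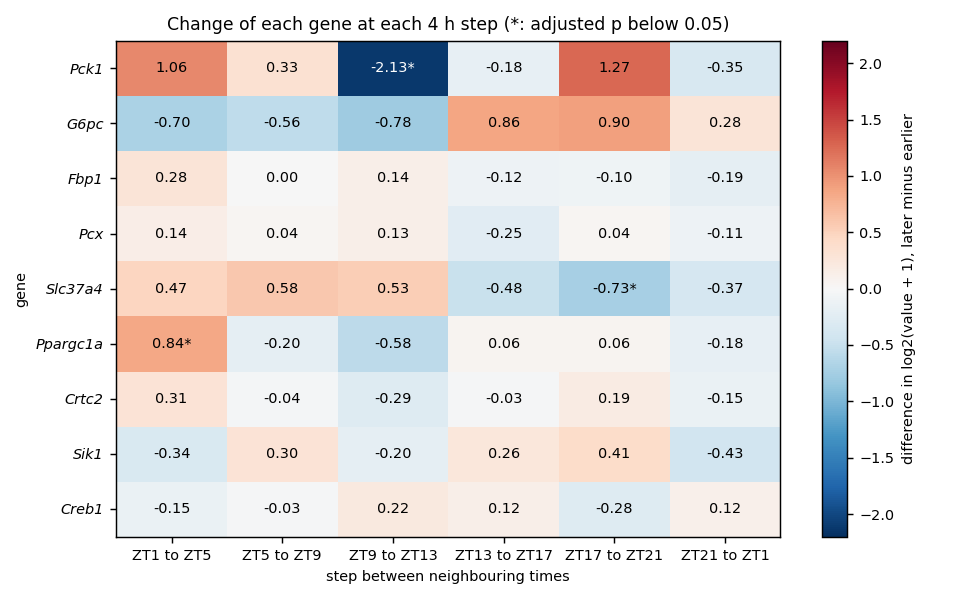
Difference in log2(value + 1), later minus earlier time point, for each gene (rows) at each 4 h step (columns), red higher and blue lower, with the fitted value in each cell (3 livers per time point). Asterisks mark the 3 called steps: Pck1 from ZT9 to ZT13 (-2.13), Ppargc1a from ZT1 to ZT5 (0.84) and Slc37a4 from ZT17 to ZT21 (-0.73).

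Because each time point held 3 mice, it could be asked which members were high in the same animals. Each liver's deviation from the mean of its time point was taken on the log2 scale, and the 36 pairs of members were compared over the 18 livers with 100000 two-sided permutations within time points. Of these pairs, 4 had an unadjusted p below 0.05 and 1 an adjusted p below 0.05. This pair was G6pc and Sik1 (Pearson r = 0.82, permutation p = 0.00035, adjusted p = 0.0126; Spearman rho = 0.88, adjusted permutation p = 0.0223). The same liver was highest in both genes at 4 of 6 time points and lowest in both at 5 of 6, and 14 of 18 livers deviated in the same direction. At ZT9, replicate 3 held 456 for G6pc and 32.6 for Sik1, whereas replicates 1 and 2 held 147 and 121 for G6pc and 10.4 and 14.7 for Sik1. Without the 2 livers farthest from the median in G6pc, ZT5 replicate 1 and ZT9 replicate 3, r was 0.80 over 16 livers with an adjusted permutation p of 0.0608. Pck1 and Pcx had r = 0.60 (rho = 0.63, permutation p = 0.0214, adjusted p = 0.257, same direction in 13 of 18 livers). Without the 2 livers farthest in Pck1, ZT1 replicate 1 and ZT5 replicate 3, their r was 0.67 (adjusted permutation p = 0.0482), and they were then the only pair past the threshold.

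Ppargc1a and its target enzymes were less closely tied. Its deviations had r = 0.51 with Pck1 (rho = 0.58, permutation p = 0.0312, adjusted p = 0.281, same direction in 12 of 18 livers) and r = 0.55 with Pcx (rho = 0.52, permutation p = 0.0148, adjusted p = 0.257, 13 of 18). Leaving out the 2 livers farthest in Pck1, or for the other pair the 2 farthest in Pcx, gave r = 0.66 each (adjusted permutation p = 0.0758 and 0.221). The livers farthest in Ppargc1a itself, ZT9 replicate 2 (deviation 0.56) and ZT9 replicate 3 (-0.48), stayed in for both pairs. With G6pc, r was -0.39 (rho = -0.18, adjusted permutation p = 0.807). Pck1 and G6pc, which are often taken as a pair of readouts of gluconeogenesis, had r = 0.08 (rho = 0.13, adjusted permutation p = 0.917), and 10 of 18 livers deviated in the same direction in both.

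**Figure D4:**
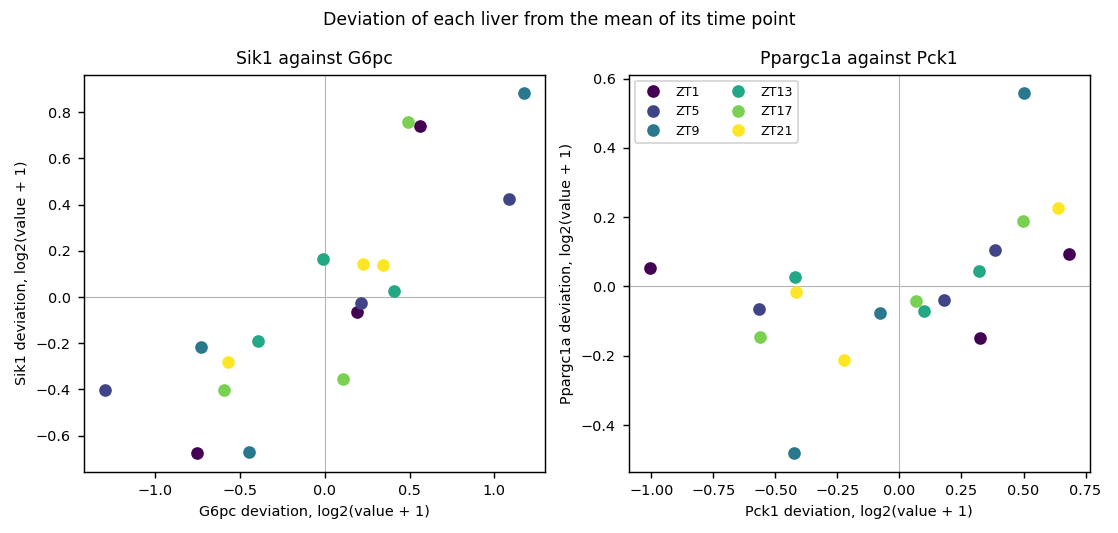
Deviation of each of the 18 livers from its time point mean on the log2(value + 1) scale, for Sik1 against G6pc (left) and Ppargc1a against Pck1 (right), coloured by zeitgeber time. The left points follow a rising line (r = 0.82) and the right points scatter more (r = 0.51).

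The genes most like each member over the 18 livers were sought among 12471 others with a mean value of at least 1, by Pearson correlation of log2(value + 1), as a description with no test. Livers share a time point and a library, so genes of like rhythm score high. Slc25a25, a mitochondrial carrier, was the most similar gene both to G6pc (r = 0.86) and to Sik1 (r = 0.82), and its deviations within time points were also the most similar to both (0.89 and 0.93). Its value was 87.3, 177 and 299 at ZT1 in ascending order, and 77.8 to 154 at ZT17. Ppargc1b, the close relative of Ppargc1a, was the gene most like Ppargc1a (r = 0.88), followed by Npc1 (0.88). Slc37a4 had the closest match of all members, Dgat2 (r = 0.97), the last enzyme of triglyceride synthesis, followed by Homer2 (0.96). For Pck1 the nearest were Slc8b1 (0.93) and Asxl1 (0.92), and for Fbp1 Nadk (0.89) and Gpat4 (0.86). Matches were lower for Pcx (Zfp574 0.84, Tcf25 0.83), Crtc2 (Osbpl1a 0.85, Sap30l 0.84) and Creb1 (Arhgap35 0.83, Eif3j2 0.80), and the next for G6pc and Sik1 were Gm38393 (0.83) and Gm30948 (0.81).

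The rest of the pathway was described with 7 lists of genes, each set against the 35.3% of all genes called at 24 h, of which 51.6% peaked in the light, and against the 11.9% called higher and 12.3% called lower in the dark. Among isoenzymes and the reversible steps that gluconeogenesis shares with glycolysis, 7 of 9 measured genes were called, all with a peak in the dark, and 7 were higher in the dark. Gpi1, which interconverts glucose-6-phosphate and fructose-6-phosphate, had an amplitude of 0.31 ± 0.05 (peak ZT13.7), and the enolase Eno1 one of 0.28 ± 0.05 (ZT16.5). The isoenzymes Pck2 (adjusted p = 0.373) and G6pc3 (adjusted p = 0.601) were not called, and Fbp2 was not analysed here. Genes for opposing glycolytic steps were called in 5 of 8, again all with a peak in the dark. Of the 8, 3 were called higher in the dark and 0 lower. Pfkfb1 (0.68 ± 0.09, ZT16.2) makes and breaks fructose-2,6-bisphosphate, the inhibitor of Fbp1. Pdk4 (1.46 ± 0.18, ZT22.1), which shuts pyruvate dehydrogenase and so spares pyruvate, had the largest amplitude of the list and its highest mean at ZT1 (25.9 ± 6.81).

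Substrate entry genes were called in 13 of 19, with 6 peaks in the light and 7 in the dark. Slc16a1, a lactate carrier, peaked at ZT20.3 (0.52 ± 0.06). The transaminases Got1 and Gpt2 peaked at ZT4.36 (0.49 ± 0.15, adjusted p = 0.0435) and ZT12.9 (0.46 ± 0.07, adjusted p = 0.000424). Thus the fitted peak of Got1, which handles aspartate, fell in the light like that of Pck1, while Gpt2, which handles alanine, peaked with Slc37a4. Unlike that of Pck1, the dark against light difference of Got1 was not called (-0.44 ± 0.17, adjusted p = 0.0718).

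In the glucagon and cAMP pathway 10 of 12 genes were called, 7 with a peak in the light, and 6 were lower in the dark against 2 higher. The phosphodiesterases Pde4b and Pde4d, which break down cAMP, peaked at ZT3.24 (0.94 ± 0.10) and ZT4.32 (0.47 ± 0.10), and Adcy6, which makes it, at ZT8.75 (0.49 ± 0.06). The CREB family with its coactivators and SIK kinases was called in 4 of 11. Crem, a CREB relative, peaked at ZT23.3 (0.49 ± 0.07), Crtc3 at ZT23.5 (0.28 ± 0.09) and the acetyltransferase Kat2b at ZT6.86 (0.32 ± 0.04). Other transcription factors and coregulators were called in 15 of 19, 10 of them with a light peak. Cry1, a clock repressor that also dampens cAMP signalling, peaked at ZT18.8 (1.44 ± 0.10), the Akt inhibitor Trib3 at ZT6.47 (1.00 ± 0.16) and the nuclear receptor Nr0b2 at ZT0.418 (0.91 ± 0.20).

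Further genes known to respond to cAMP and CREB were called in 5 of the 7 measured, 3 with a light peak. Per1 peaked at ZT11.6 (1.26 ± 0.28), Irs2, which carries the insulin signal, at ZT0.191 (1.11 ± 0.14) and Nr4a1 at ZT1.87 (0.58 ± 0.13). The peaks of Irs2 and Nr0b2 lay within 1 SE of that of G6pc (ZT0.392 ± 0.886 h). The members with the core letters before a RefSeq start were likewise called with different peaks, Pck1 and Ppargc1a at ZT5.34 and ZT6.78 and Slc37a4 at ZT12.9.

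**Figure D5:**
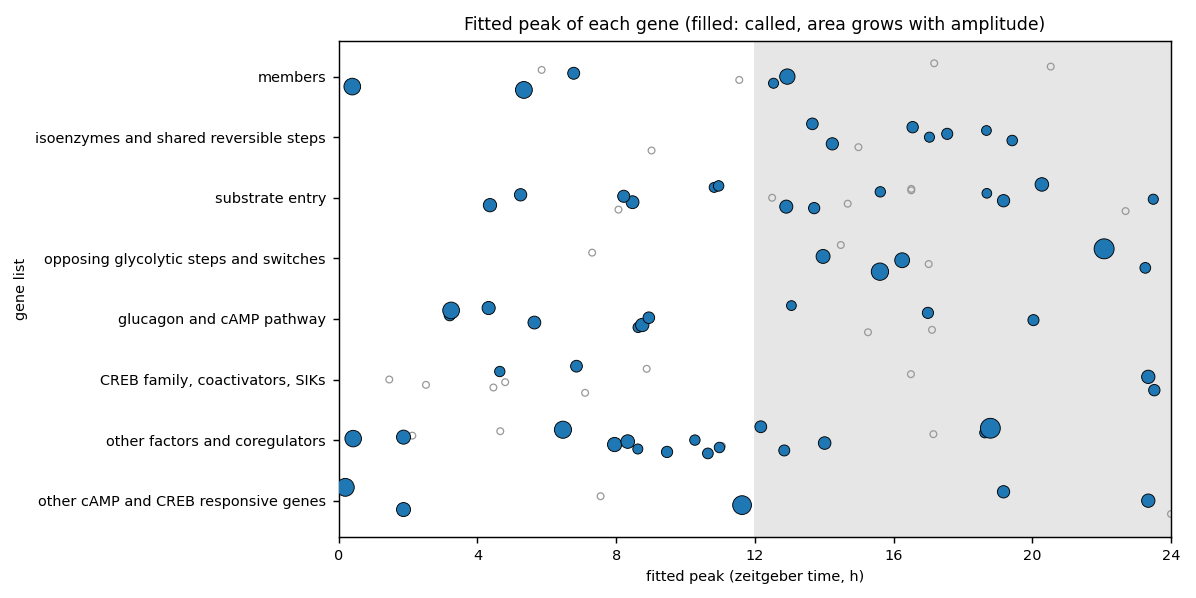
Fitted 24 h peak in zeitgeber hours (x axis) of each measured gene of the 9 members and of the 7 lists (rows, with genes set apart vertically at no scale). Filled circles are genes called at an adjusted p below 0.05, with area growing with the log2 amplitude, open circles are genes not called, and grey is the dark. All called genes of the reversible and opposing glycolytic steps peak in the dark, whereas the members, the cAMP pathway and the other factors are spread over both phases.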

How the data were processed

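RNA of 18 livers, poly(A) RNA in the labels and whole RNA in the methods, was sequenced by the submitters as 50-nt single reads with a kit that does not mark strand. Per the labels and methods, the authors used CASAVA 1.8.2, Cutadapt and RSEM 1.2.20 on GRCm38 transcripts, and limma for scaling of the estimated counts. What was deposited is a signal per gene and liver, made of estimated reads plus 0.5, scaled to 1000000 reads of each effective library. All columns were matched to a sample by title, and 0 were left unmatched.

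Values were tested as log2(value + 1) with limma 3.58.1 in R 4.3.3 over 14449 genes varying above the floor, called at a Benjamini-Hochberg adjusted p below 0.05. Tests were a 24 h cosine and sine, a 12 h term, all time points, neighbouring times, and dark against light. JTK, a CircaN cosine and permutations ran in Python 3.11.15. Depth was 10268168 to 23242842 reads per liver, and small values carry the larger counting error. Tests were checked on simulated data. Alternatives were other pseudocounts, filters, scalings and thresholds, limma's trend option, and single livers left out.

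Members and lists were chosen with earlier results of these data known. Besides the members, up to 3 called genes with the largest amplitude were named per list, isoenzymes of members, the 2 most similar genes of each member, and pairs of members called together or including Ppargc1a with Pck1, G6pc or Pcx. Some genes that this rule would name are not reported here. Replicates were numbered within a time point in accession order.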

Additional observations from a re-analysis of the deposited data

How the results depend on the processing

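No paired analysis was possible because each liver came from its own mouse and the labels give no replicate numbers shared between time points. Members called rhythmic numbered 1 with the CircaN cosine curve, whose period is not fixed at 24 h. At 24 h they numbered 2 at an adjusted p below 0.01, against 5. Genes called numbered 1621 and 2862 in these settings, against 5103. At an adjusted p below 0.01 the time effect called 2 members and 1924 genes. The 12 h term called 76 genes with a pseudocount of 0.1. JTK called 3 members and 3237 genes with time points of equal cosine taken as 1 group, 2 members with a mean of at least 1, 2 members with a 24 h period only, and 315 genes at q below 0.01. With equal column totals the ratio of highest to lowest mean was 1.41 for Crtc2 and 1.196 for Creb1, and the dark against light difference of Pcx, which was called in neither setting, was -0.00321. The same scaling brought Crtc2 past the threshold for dark against light (adjusted p = 0.0434) and for the time effect (0.0402), and took the Fbp1 time effect (0.0558) and the Slc37a4 step from ZT17 to ZT21 (0.0607) out of the calls. The cause of these changes was not tested, apart from the stricter thresholds.

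Leaving out 1 liver gave 32 to 114 genes with a 12 h term (fewest without ZT1 replicate 2), 1 to 4 called member steps (fewest without ZT1 replicate 2, most without ZT5 replicate 1 or ZT9 replicate 2), 1 to 2 members by JTK (2 without ZT5 replicate 1, ZT5 replicate 3, ZT9 replicate 2 or ZT17 replicate 1), and 1266 to 1913 genes by JTK. The ratio ranged from 1.25 to 1.40 for Crtc2 and from 1.25 to 1.36 for Creb1. Members called at 24 h stayed at 4 to 5. Of 1620 values of single genes, pairs and lists under an alternative, 66 crossed a threshold or moved and 1 of these changed sign. Ppargc1a, with 56 to 256 reads per liver, carries the largest counting error, and the livers of a time point spread more in G6pc than in most genes.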
